A study of Homo sapiens with 16 samples.

Results

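Peak regions that lie on Alu repeats were examined in an H3K9me2 ChIP-seq experiment on BJ-5ta cells, human fibroblasts immortalized with telomerase. A region was taken when the annotation deposited with it, made with HOMER at the centre of the region, named a repeat of the Alu family of SINEs, and this rule selected 1268 of 16092 peak regions (7.88%). Wild-type cells and cells without LEO1, a subunit of the PAF1 complex that travels with RNA polymerase II, were cultured in 10% serum or were made quiescent by 10 days in 0.1% serum. The ΔLEO1 cells are 1 clone, made with CRISPR/Cas9, so that clone and genotype cannot be told apart. Replicates are lettered A and B, so that 2 ChIP and 2 input libraries belong to every one of the 4 combinations. In the labels the antibody appears simply as H3, whereas the study names dimethylated lysine 9 of histone H3. All values below are from ChIP libraries unless the input, the same kind of chromatin sequenced without antibody, is named.

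Alu elements are short, primate-specific retrotransposons derived from the 7SL RNA of the signal recognition particle, and they are the most numerous interspersed repeats of the human genome. They do not encode proteins and were copied with the machinery of L1 elements. AluJ is the oldest subfamily, AluS is intermediate and AluY is the youngest, and the monomers FLAM, FRAM and FAM are still older relatives. Alu elements are concentrated in gene-rich DNA, where they are usually kept silent by DNA methylation and by methylation of H3K9, the mark that was profiled here.

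The ChIP of replicate A of ΔLEO1 in 10% serum, with 21 reads over all peak regions, was left out, so ΔLEO1 in 10% serum is represented by 1 library. The 7 remaining ChIP libraries held between 217472 and 366633 reads over peak regions, of which between 14874 and 22926 fell on Alu regions. The median count of an Alu region was between 11 and 18 reads in these libraries, and between 120 and 505 of the 1268 Alu regions had fewer than 10 reads. The 8 input libraries held between 8506 and 15706 reads over Alu regions. Among them, ΔLEO1 10% serum replicate A stood apart, with 39 Alu regions without a read where the other inputs had at most 2. Nothing in the labels says that replicates came from separate cultures, so that p-values measure only the spread between these libraries, which may be technical.

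The Alu regions were dominated by the middle-aged subfamily. AluS gave 923 regions (72.8%), AluJ 198 (15.6%), AluY 142 (11.2%) and the monomers 5. The 35 repeat names found were led by AluSz with 156 regions, AluSx1 with 153, AluSx with 132 and AluY in the strict sense with 115. Because a region is longer than an Alu element, it also held flanking sequence. The median width of an Alu region was 671.5 bp, against 768 bp for all other regions, and 78 Alu regions (6.15%) were wider than 1 kb against 18.2% of the others.

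The Alu regions lay inside genes somewhat more often than the other regions did. Like regions on other repeats, they rarely had their centre close to the start of a gene. Gene spans of RefSeq (GRCh38.p14, the same assembly as the hg38 build named for these files) covered 735 Alu regions (58.0%) and 51.6% of the other regions, and spans of protein-coding genes covered 44.0% and 33.6%. Exons and introns were not told apart. By subfamily, 48.5% of AluJ, 44.3% of AluS and 35.2% of AluY regions lay in a protein-coding span, compared with 28.2% of the 3120 regions on L1 and 23.7% of the 4808 regions on LTR retrotransposons. The share was 43.4% for the 726 regions on MIR, L2 and DNA repeats, close to that of Alu. It was 43.3% for the 5708 regions whose annotation named no repeat at the centre. This last group pools promoter, exon, gene-end, CpG, intron and intergenic labels, and its regions may hold repeats away from the centre. Only 2 Alu regions (0.158%) had their centre within 1 kb of the nearest transcription start site (TSS). Another 148 lay at 1 to 10 kb, 696 at 10 to 100 kb and 422 beyond. Within 1 kb lay 0.0641% of L1, 0.104% of LTR and 0.0% of MIR, L2 and DNA regions, against 8.37% of those with no repeat named. A region carries 1 annotation, so one annotated as promoter or exon could not be selected as Alu. The scarcity near TSSs therefore cannot be read as a property of Alu regions. No Alu region overlapped a promoter window of the RefSeq table, and few regions on other repeats did. The shares were 0.0962% for L1, 0.27% for LTR and 0.275% for MIR, L2 and DNA repeats, against 4.84% of the regions with no repeat named. The deposited windows of 2000 bp around TSSs are more numerous, and 92 Alu regions (7.26%) overlapped one, against 10.9% of the other regions. For L1, LTR and the MIR, L2 and DNA repeats this share was 2.44%, 3.89% and 4.82%, and for regions with no repeat named 22.6%.

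The regions were spread over the genome. They came from chromosomes 1 to 22, with 112 regions on chromosome 1 and 14 on chromosome 21, plus 1 region on chromosome Y. Among chromosomes 1 to 22, their share of the peak regions of a chromosome ranged from 5.24% on chromosome 18 to 12.2% on chromosome 16. Another Alu region was found within 10 kb of 38 Alu regions (3.0%). The 711 genes whose span held an Alu region mostly held a single one (638 genes), and 4 lay in each of ADK (adenosine kinase; chromosome 10) and GALNT17 (a glycosyltransferase; chromosome 7). The nearest gene was a zinc-finger gene with a ZNF symbol for 25 Alu regions (1.97%), a LINC non-coding RNA for 159 (12.5%) and a microRNA for 77 (6.07%). For all 16092 regions these shares were 1.39%, 17.1% and 6.38%. Among AluJ regions, 7 had a LINC RNA as nearest gene (3.54%), against 13.8% of AluS and 17.6% of AluY regions.

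Next, the level of the mark on Alu regions was compared with input. Every Alu region stood above input, and the median rise was smaller than that of the other regions. With reads over TSS windows as the measure of depth, the mean of ChIP over input across the 3 combinations with 2 usable ChIP libraries had a median log2 fold change of 1.61 over Alu regions, with a quartile range from 1.45 to 1.77. The median of all regions was 1.73. Reads of a ChIP library over TSS windows can carry the mark too, so these values are relative to that total. All 1268 Alu regions were called higher in ChIP (edgeR quasi-likelihood test, Benjamini-Hochberg adjusted p under 0.05), as were 16089 of the 16092 regions in all (100% when rounded). Since regions entered the table because a peak was called there, a level above input is not a finding by itself.

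The age of the Alu subfamily made little difference to this level. The median ChIP over input was 1.61 for AluJ, 1.61 for AluS and 1.66 for AluY, and over the 12 repeat names with at least 40 regions it ran from 1.58 to 1.68. Regions on L1 and LTR elements had higher medians of 1.77 and 1.78, whereas the 726 regions on the ancient MIR, L2 and DNA repeats had 1.62, like Alu. These class medians are a description, and their differences are small beside the quartile range within each class. On all of chromosomes 1 to 22 the Alu median was below that of the other regions of the same chromosome. Normalised per length, the median ChIP level was 70.2 CPM (counts scaled to the size of each library) per kb on Alu regions and 74.9 on other regions, while the median input level was 2.38 and 2.36 reads per kb after scaling to TSS-window reads.

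**Figure D1:**
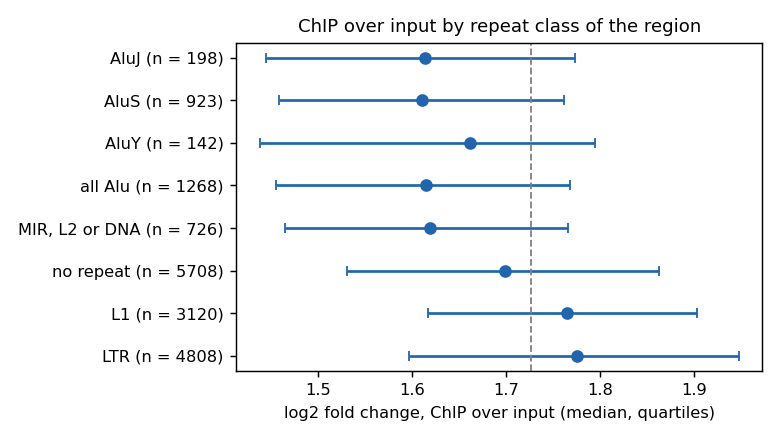
ChIP over input for regions of each repeat class, as the log2 fold change of the mean over 3 combinations of genotype and serum. Points are medians over regions, bars run from the lower to the upper quartile, and the dashed line is the median of all regions (1.73). The Alu subfamilies and the MIR, L2 and DNA repeats lie at 1.61 to 1.66, left of the L1 and LTR regions at 1.77 and 1.78.

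Within single combinations the median ChIP over input on Alu regions was 1.84 in wild-type cells in 10% serum, 1.61 in wild-type cells in 0.1% serum, 1.44 in ΔLEO1 cells in 0.1% serum and 1.45 in the 1 library of ΔLEO1 cells in 10% serum. The medians of the other regions were 1.99, 1.80, 1.49 and 1.60. The medians of Alu and other regions thus lay closest together in ΔLEO1 0.1% serum. Differences between combinations also depend on the TSS-window totals, so they do not show by themselves how the mark changed. By subfamily, from AluJ to AluS to AluY, the medians in 0.1% serum were 1.62, 1.60 and 1.67 in wild-type cells and 1.55, 1.43 and 1.33 in ΔLEO1 cells. The share of Alu regions called higher than input was 95.7% in wild type 10% serum (1213 regions, 98% of all regions), 90.4% in wild type 0.1% serum (1146 regions, 95.8% of all), 83.3% in ΔLEO1 0.1% serum (1056 regions, 88.2% of all) and 56.5% in ΔLEO1 10% serum (716 regions, 69.1% of all). In each combination a smaller share of Alu regions than of all regions was called. Alu regions were also narrower, with a median of 671.5 bp against 768 bp for the others. The part of width and read number in these shares was not tested.

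The 5 Alu regions with the largest rise over input had log2 fold changes between 2.19 and 2.26. They were an AluJb region 6943 bp upstream of DSC1 (a desmosomal cadherin) at chr18:31169518-31170080, an AluJb region within JPH3 (a junctophilin) at chr16:87607770-87609889, an AluSx4 region within ATL3 (an atlastin of the endoplasmic reticulum) at chr11:63664380-63665281, an AluSz6 region within the non-coding gene LINC01681 at chr1:170176169-170176691, and an AluY region 7256 bp upstream of the olfactory receptor gene OR6X1 at chr11:123761457-123762091. The JPH3 region was the widest of the Alu set at 2119 bp, with counts of 64 and 83 in wild type 10% serum, 79 and 65 in wild type 0.1% serum, 82 and 32 in ΔLEO1 0.1% serum and 39 in ΔLEO1 10% serum. Its counts in the matching inputs were 31 and 45, 24 and 34, 18 and 38, and 17 and 35. Its log2 fold change over input was 2.22 ± 0.17 (SE).

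None of the 10 regions with the highest ChIP level per kb was among the 5 with the largest rise over input. The 10 highest had between 99.8 and 146.6 CPM per kb, and all 10 also had an input level above the Alu median, 9 of them above the upper quartile of 2.67. The highest were an AluSx1 region at chr21:9888580-9889131 with 146.6 CPM per kb, an AluSx1 region at chr22:11028728-11029904 with 124.3 and an AluSp region at chr22:11576497-11577258 with 122.3. Next came an AluY region at chr2:117676476-117677222 and an AluYc region within the pseudogene UBBP4 at chr17:22136399-22137094, which had the highest input of the 10 with 7.10 in the same unit. The remaining 5 were an AluY region within ESR1 (an oestrogen receptor), an AluSg region within RASA1 (a Ras GTPase-activating protein), an AluJo region 1129 bp upstream of LOC100128288, an AluSc8 region at chr22:11580548-11581254 and an AluJb region upstream of METTL9 (a methyltransferase). Their ChIP over input ran from 1.19 to 2.17, and 5 of the 10 were below the Alu median. None was called between genotypes or sera, and the part of repeated sequence and read mapping in their levels was not tested.

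The next question was whether the mark on Alu regions differed between ΔLEO1 and wild-type cells in quiescence. The Alu regions took a larger share of the reads over peak regions in ΔLEO1 cells. In wild-type cells the share was 6.14% and 6.27% in 0.1% serum and 6.02% and 6.27% in 10% serum. In ΔLEO1 cells it was 6.64% and 6.89% in 0.1% serum, and 6.62% in the 1 library in 10% serum (95% exact binomial interval from 6.51% to 6.72%, counting error only). All 3 ΔLEO1 libraries thus lay above all 4 wild-type libraries. In 0.1% serum the means were 6.76% ± 0.179 and 6.21% ± 0.0926 (SD, n = 2 each), a difference of 0.555 percentage points that is larger than the spread between replicates. No test is given, because the share is a sum over the regions examined.

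By subfamily, AluS reads made up 4.90% ± 0.111 of peak reads in ΔLEO1 and 4.49% ± 0.112 in wild-type cells in 0.1% serum (SD, n = 2 each), and AluJ reads 1.14% ± 0.0338 and 1.01% ± 0.00622. AluY reads, at 0.702% ± 0.0373 and 0.679% ± 0.0174, differed by less than the spread. The MIR, L2 and DNA repeats also had a larger share in ΔLEO1 cells, 4.32% ± 0.0292 against 4.07% ± 0.0633, while L1 had 20.5% ± 0.245 against 20.8% ± 0.104 and LTR 29.7% ± 0.121 against 29.9% ± 0.0226. The AluJ, AluS and MIR, L2 and DNA shares were thus higher in both ΔLEO1 libraries than in both wild-type libraries.

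Other values moved with this share. In the inputs, where no antibody was used, the Alu share was 6.86% and 6.58% in wild type 10% serum, 7.65% and 6.93% in ΔLEO1 10% serum, 7.07% and 6.95% in wild type 0.1% serum and 6.93% and 6.75% in ΔLEO1 0.1% serum. All ChIP libraries of wild-type cells were below every input, whereas those of ΔLEO1 cells overlapped the inputs. The reads over peak regions amounted to 10.1% ± 0.296 of those over TSS windows in ΔLEO1 0.1% serum ChIP and 12.4% ± 0.142 in wild type, so that peak reads were fewer relative to TSS-window reads in ΔLEO1. Measured against TSS-window reads, Alu reads were lower in ΔLEO1, 0.684% ± 0.00195 against 0.772% ± 0.00268. The direction of the difference in Alu reads therefore depends on the total used, and the part of this drop in peak reads in the higher Alu share was not tested.

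**Figure D2:**
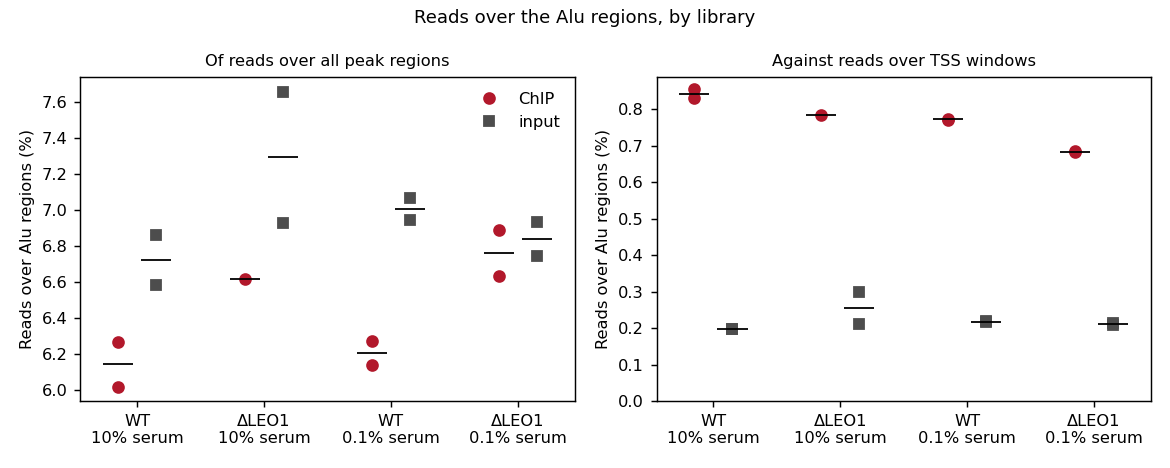
Reads over Alu regions in each library, as a percentage of reads over all peak regions (left, axis not from 0) and relative to reads over TSS windows (right). Points are libraries, bars are group means, and the left-out library is not shown. On the left the 3 ΔLEO1 ChIP libraries (6.62% to 6.89%) lie above the 4 wild-type ones (6.02% to 6.27%), and on the right ΔLEO1 is below wild type in 0.1% serum.

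Region by region, the distribution of fold changes on Alu regions was shifted upwards relative to other regions, although almost no single region passed the test. With TMM scaling within the peak regions, the median log2 fold change of ΔLEO1 over wild-type cells in 0.1% serum was 0.11 over Alu regions, with quartiles of -0.22 and 0.45, and 0.01 over all regions. In all, 739 Alu regions (58.3%) were above 0, compared with 50.6% of all regions. An unadjusted p under 0.05 was found for 91 Alu regions with higher and 30 with lower signal, 7.18% and 2.37% of the Alu regions, where the background over all regions was 4.65% and 3.67%. Both ΔLEO1 libraries lay above both wild-type libraries for 297 Alu regions (23.4%, background 18.1%) and below them for 192 (15.1%, background 19.4%). With TSS-window reads as library sizes the balance turned, with 19 Alu regions higher and 94 lower at an unadjusted p under 0.05 and 36.5% above 0. The matching shares over all regions at this scaling were not computed, so these counts cannot be read as particular to Alu regions. Without wild type 0.1% serum replicate B the median under TMM was 0.14 over Alu regions and 0.01 over all regions. The medians with TSS-window reads were -0.17 over Alu regions and -0.28 over all regions, so the direction of change on Alu regions depended on the scaling. A change of library sizes moves all regions nearly alike, so the position of Alu regions relative to others could hardly differ between scalings.

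The relative shift was seen across most groupings of the regions. The median was 0.16 for AluJ, 0.12 for AluS and -0.01 for AluY, and 11 of the 12 repeat names with at least 40 regions had a median above 0, the exception being AluY with -0.04. Regions on MIR, L2 and DNA repeats had a median of 0.10, and L1 and LTR regions -0.01 and -0.00299, so that Alu was not alone in its shift. Alu regions were above other regions in all 4 quartiles of ChIP over input in wild type 10% serum, a grouping made on libraries that are not part of the comparison. In the least enriched quartile the medians were 0.15 for 457 Alu and 0.09 for other regions, and in the most enriched one 0.07 for 220 Alu and -0.05 for other regions. The least enriched quartile thus held 457 of the 1268 Alu regions. Alu regions also had the higher median at 1 to 10 kb from a TSS (0.16 against 0.02), at 10 to 100 kb (0.12 against 0.02) and beyond (0.08 against -0.03).

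On 20 of 22 chromosomes the median of Alu regions was above that of the other regions, with chromosomes 19 and 20 as the exceptions. Chromosome 4 stood apart, with medians of -0.25 for its 60 Alu regions and -0.28 for its other regions. Between 80 and 190 Mb of this chromosome the medians were -0.46 for 32 Alu and -0.44 for the other regions, and there the input was also lower in ΔLEO1 cells, with median log2 differences of -0.18 for 17 Alu and -0.27 for the other regions tested. On chromosome 22 the medians were 0.36 for 16 Alu and 0.17 for other regions, and those of the input 0.08 and 0.11. With all regions of chromosomes 3, 4 and 5 left out, an alternative chosen after seeing the data, the median of Alu regions exceeded that of other regions by 0.11, as it did over all chromosomes.

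**Figure D3:**
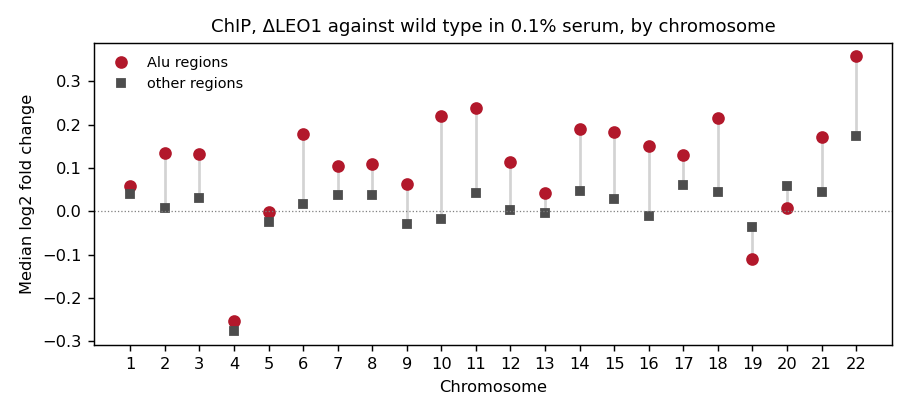
Median log2 fold change of ChIP in ΔLEO1 against wild-type cells in 0.1% serum, for the Alu regions (circles) and other peak regions (squares) of each chromosome. The circle is above the square on 20 of 22 chromosomes, and chromosome 4 is low for both, at -0.25 and -0.28.

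In this comparison 1 Alu region was called higher and 1 lower by edgeR at an adjusted p under 0.05, or 0.0789% of Alu regions in each direction, where 0.0124% and 0.0497% of all regions were called. The region with higher signal was an AluSp region at chr22:48291022-48292086, outside any RefSeq gene span and 17190 bp from the microRNA gene MIR3201. It had 29.5 and 27.2 CPM in wild type 0.1% serum and 121.2 and 97.6 CPM in ΔLEO1 0.1% serum, from 11, 8, 41 and 21 reads. In 10% serum it had 62.9 and 57.5 CPM in wild type and 113.1 CPM in the ΔLEO1 library. In quiescence both ΔLEO1 libraries were above both wild-type libraries, as the rule for naming a region requires, with a log2 fold change of 1.75 ± 0.40 (SE; edgeR, adjusted p = 0.0120). Its input was 89.9 and 68.8 CPM in wild type and 64.9 and 111.3 CPM in ΔLEO1 0.1% serum, so the groups overlapped there.

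The region with lower signal was an AluSg region at chr21:41216338-41218010, within the span of BACE2 (an aspartyl protease) and 31935 bp upstream of PLAC4, the nearest TSS. It had 85.9 and 152.8 CPM in wild type 0.1% serum and 41.4 and 23.2 CPM in ΔLEO1 0.1% serum, from 32, 45, 14 and 5 reads. The 10% serum libraries had 86.9 and 87.6 CPM in wild type and 54.3 CPM in ΔLEO1. In quiescence both ΔLEO1 libraries were below both wild-type libraries, again a condition for naming, with a log2 difference of -1.60 ± 0.38 (SE; edgeR, adjusted p = 0.0154). In the inputs of the same groups it had 105.8 and 105.8 CPM, and 100.9 and 111.3 CPM. Neither call held by DESeq2, where the adjusted p was 1.00 for both, nor after subtraction of input in 1 fit, where edgeR gave adjusted p = 0.451 and 0.380. Leaving out single libraries of the 0.1% serum groups ended the MIR3201 call in 3 of 4 cases and the PLAC4 call in 3 of 4 cases. The exceptions were ΔLEO1 replicate B for the MIR3201 region and wild type replicate A for the PLAC4 region.

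The other regions named by the smallest p did not pass the test. With higher values in ΔLEO1 0.1% serum, an AluSq region at chr9:137637000-137637776 lay within EHMT1, the gene of an H3K9 methyltransferase (GLP). It had 32.2 and 27.2 CPM in wild type and 88.7 and 88.3 CPM in ΔLEO1 0.1% serum, a log2 difference of 1.38 ± 0.43 (SE; edgeR, adjusted p = 0.137). In 10% serum it had 59.9 and 30.1 CPM in wild type and 54.3 CPM in ΔLEO1, where the values overlapped. An AluSq2 region at chr7:128736779-128737622, 2159 bp upstream of CALU (calumenin, a calcium-binding protein of the secretory pathway), had 59.0 and 44.2 CPM in wild type and 115.3 and 120.8 CPM in ΔLEO1 (edgeR, adjusted p = 0.207).

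With lower values in ΔLEO1 0.1% serum, an AluSz6 region at chr1:34152922-34153587 within CSMD2 had 56.4 and 54.3 CPM in wild type and 14.8 and 23.2 CPM in ΔLEO1 (edgeR, adjusted p = 0.313). An AluSc5 region at chr8:84815561-84816096 within RALYL had 45.6 and 64.5 CPM in wild type and 17.7 and 9.29 CPM in ΔLEO1 (edgeR, adjusted p = 0.314). In 10% serum the ΔLEO1 library of these 2 regions, at 58.8 and 36.2 CPM, was beside the wild-type libraries at 50.9 and 57.5 CPM, and 47.9 and 32.9 CPM.

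**Figure D4:**
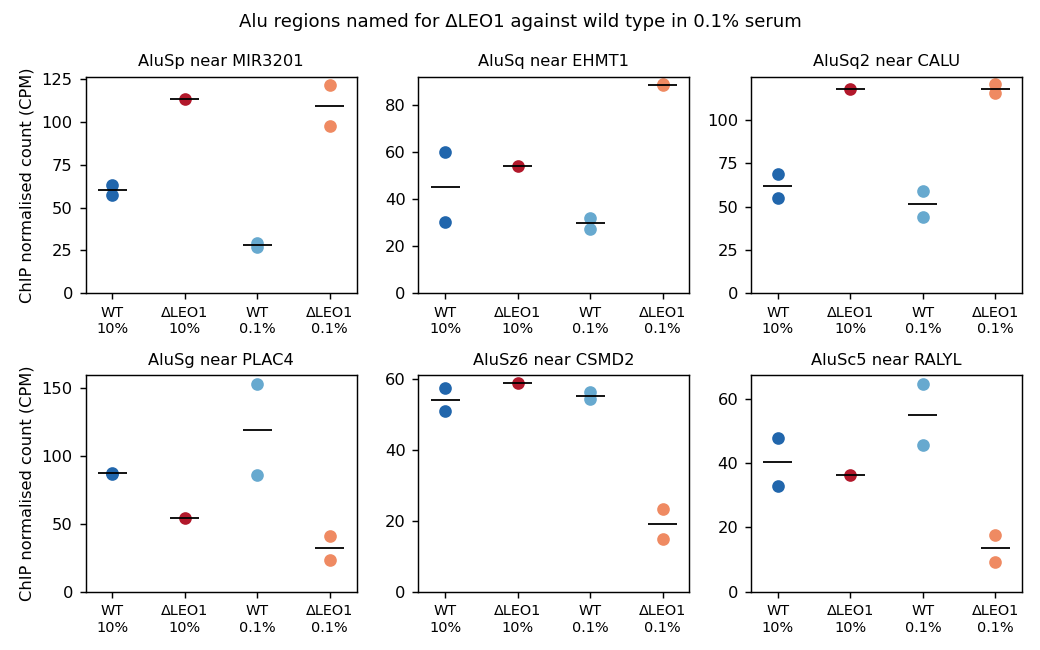
Normalised ChIP counts (CPM) in each of 7 libraries for the 6 Alu regions named for ΔLEO1 against wild-type cells in 0.1% serum. Points are libraries and bars group means, with 2 libraries per group except ΔLEO1 10% serum (1). In 0.1% serum the ΔLEO1 points lie above the wild-type points for the regions near MIR3201, EHMT1 and CALU and below them for PLAC4, CSMD2 and RALYL, of which MIR3201 and PLAC4 passed the test. Groups without overlap in 0.1% serum were a condition for naming a region.

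In proliferating cells, in 10% serum, ΔLEO1 was represented by 1 library, which is assumed to vary like the other groups. No Alu region was called by edgeR or DESeq2, as for all regions (0%). At an unadjusted p under 0.05, 79 Alu regions (6.23%) were higher and 20 (1.58%) lower by edgeR, where the background was 3.84% and 3.16%. The median log2 fold change was 0.03 over Alu regions and -0.02 over all regions, and -0.17 and -0.23 with TSS-window reads as library sizes. Under that scaling the balance turned to 38 Alu regions higher and 53 lower at an unadjusted p under 0.05, and with all 8 ChIP libraries it was 16 and 14. For these settings the shares over all regions were not computed, so the balance cannot be read as particular to Alu regions. After subtraction of input in the same fit the difference between the medians of Alu and other regions was no longer positive (-0.00703, against 0.05 without input). This comparison shares no ChIP library with the one in 0.1% serum. A test of the interaction of genotype and serum called no Alu region by edgeR (0% of all regions), with 49 Alu regions (3.86%) above and 39 (3.08%) below at an unadjusted p under 0.05, against 3% and 2.54% of all regions.

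The named regions in 10% serum did not pass. Those with the higher value in the ΔLEO1 library were an AluSz region at chr8:100429055-100430009, with 39.0 and 46.5 CPM in wild type and 126.7 CPM in ΔLEO1, an AluJr region at chr8:59343290-59344344, with 50.9, 46.5 and 131.2 CPM, and an AluSg region within TBC1D22A (chr22:46932536-46933234), with 11.98, 27.4 and 76.9 CPM. Those with the lower value were an AluY region within HS3ST4 (a heparan sulfate sulfotransferase; chr16:25916437-25917069), with 41.9, 68.4 and 9.05 CPM, and an AluSq2 region at chr6:112697964-112698709, with 65.9, 57.5 and 18.1 CPM. The adjusted p of these 5 regions was between 0.482 and 0.597 (edgeR). The low values rest on 2 to 4 reads.

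In wild-type cells the 2 sera were compared next. No Alu region was called between 0.1% and 10% serum by edgeR or DESeq2, as for all regions (0%). At an unadjusted p under 0.05, 55 Alu regions (4.34%) were higher and 51 (4.02%) lower in 0.1% serum by edgeR, against a background of 3.34% and 3.93%. The median log2 fold change was -0.000696 over Alu regions and -0.01 over all regions, and 49.8% of Alu regions were above 0. With TSS-window reads as library sizes these medians were -0.11 and -0.12, with 32 Alu regions higher and 87 lower at an unadjusted p under 0.05. Shares over all regions were not computed at that scaling, so the 2 counts cannot be read as particular to Alu regions. After subtraction of input in 1 fit the medians were -0.07 over Alu regions and -0.00415 over all regions. Under TMM the Alu median also moved with single libraries, to -0.02 without wild type 10% serum replicate A and 0.04 without replicate B. The median over all regions was 0.00167 and 0.00158 in these fits. The Alu share of peak reads in wild-type cells was 6.21% ± 0.0926 in 0.1% serum and 6.14% ± 0.175 in 10% serum (SD, n = 2 each), a difference within the spread.

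**Figure D5:**
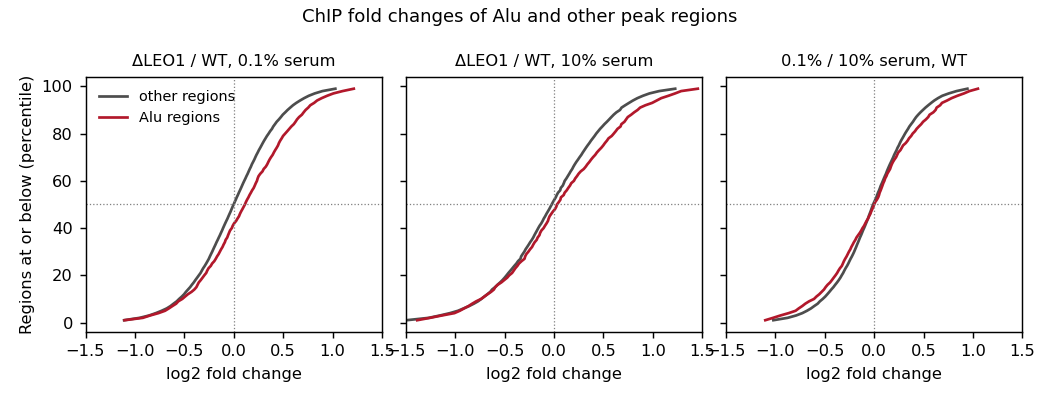
Cumulative distributions of the log2 fold change of ChIP over the 1268 Alu regions and the 14824 other regions, from the first to the last percentile, for ΔLEO1 against wild-type cells in 0.1% serum, in 10% serum, and for 0.1% against 10% serum in wild-type cells. The Alu curve is to the right of the other curve at the median in the first 2 panels (0.11 and 0.03) and crosses it near 0 in the third.

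The named regions of the serum comparison also failed the test, with adjusted p between 0.246 and 0.529 (edgeR). An AluSz region at chr1:162461558-162462256, upstream of the kinase gene UHMK1, had 14.98 and 2.74 CPM in 10% serum, from 5 and 1 reads, and 48.3 and 50.9 CPM in 0.1% serum. An AluSg region at chr20:38198866-38200008, upstream of TGM2 (transglutaminase 2), had 42.0 and 49.3 CPM in 10% serum and 112.7 and 88.3 CPM in 0.1% serum, and an AluSg region at chr11:10902884-10903662 had 42.0 and 35.6, and 75.1 and 108.7 CPM. The largest loss by p was that of an AluSg7 region at chr10:65156835-65158006, from 101.9 and 95.8 CPM to 40.3 and 37.4 CPM. It was followed by an AluSz6 region within SHISA9 (chr16:13037748-13038517), with 62.9 and 104.0 CPM against 42.9 and 30.6 CPM, and an AluSz6 region at chr5:84817941-84818593, upstream of EDIL3 (an extracellular matrix protein), with 47.9 and 65.7 CPM against 24.2 and 6.79 CPM.

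The input libraries gave the background of the genotype comparison. Of the 1268 Alu regions, 1005 had enough input reads to be tested, and none was called between ΔLEO1 and wild-type cells over both sera by edgeR or DESeq2 (0% of all regions). At an unadjusted p under 0.05, 30 Alu regions (2.99%) were higher and 21 (2.09%) lower in ΔLEO1 by edgeR, against a background of 2.2% in each direction. The median log2 difference was 0.02 over Alu regions and -0.00200 over all regions, and 0.10 and 0.08 with TSS-window reads as library sizes. At that scaling 55 Alu regions were higher and 11 lower at an unadjusted p under 0.05. The shares over all regions were not computed, so this balance cannot be read as particular to Alu regions. Without ΔLEO1 10% serum input replicate B the median was 0.04 over Alu regions and -0.03 over all regions. In 0.1% serum the Alu share of input reads was 6.84% ± 0.132 in ΔLEO1 and 7.01% ± 0.0846 in wild-type cells (SD, n = 2 each), in the opposite order to the ChIP. In 10% serum it was 7.29% ± 0.512 and 6.72% ± 0.195, and the wide spread of ΔLEO1 came from replicate A.

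The Alu regions with the smallest p in input had an adjusted p of 0.999 (edgeR) and were not among those named in ChIP. Higher values in ΔLEO1 were found in an AluSx1 region within CRISPLD1 (log2 difference 1.02 ± 0.40, SE), an AluSx3 region within ALG6, a glucosyltransferase of the N-glycan pathway (0.81 ± 0.33), and an AluSx1 region near LINC02039 (0.80 ± 0.36). Lower values were found in an AluSq2 region near LINC02215 (-1.09 ± 0.48), an AluJb region within DNM3, a dynamin gene (-0.86 ± 0.38), and an AluSx region near LINC01815 (-0.87 ± 0.40).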

How the data were processed

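The authors deposited raw read counts, whole numbers without scaling, for 16 libraries over 16092 merged peak regions and over 272902 windows of 2000 bp around annotated TSSs, 237274 of them with distinct coordinates. The submitters' processing notes name bcl2fastq 2.20.0.422, STAR 2.7.10a, HOMER and the builds hg38 and dm6. Per the study's methods, ChIP signal was counted with csaw and scaled to spiked-in fly chromatin, and spike-in reads were not used here. The libraries used to call peaks, and the treatment of duplicate and multiply mapping reads, are not given in the sources used here. Groups came from sample titles, and 0 columns were left unassigned.

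Counts were tested with the quasi-likelihood F-test of edgeR 4.0.16 in R 4.3.3, two-sided, 1 coefficient per group, filterByExpr with a minimum count of 10, TMM scaling and a prior count of 2. The Benjamini-Hochberg adjustment ran over all regions tested. The 7 ChIP libraries and the 8 inputs were fitted separately. ChIP over input was fitted in 15 libraries with totals over distinct TSS windows as library sizes and without TMM, because scaling inside peaks would centre their enrichment on 0. TMM in turn centres fold changes between ChIP libraries near 0, so a shift of all regions cannot be seen. Standard errors were derived from the F statistic and the fold change before shrinkage by the prior count. They are therefore only approximate for the printed fold changes, which are shrunk. CPM values are relative to the TMM-adjusted total of each library over peak regions. DESeq2 1.42.0 and the other alternatives of the closing section were run beside this. The fits were tested on simulated data.

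Alu regions and groupings were chosen with earlier results of these data known. For each comparison, up to 5 regions in each direction were named by size among those called, without overlap between groups and with 10 counts or more per library on the higher side. Where fewer than 3 were called, the 3 of smallest p that met the same conditions on overlap and counts were named. The 10 regions of highest mean CPM per kb with at least 10 counts in each ChIP library were also named. Of the regions this rule selects, 1 is not reported here. Replicates differed by more than sampling noise in every group. Intervals reflect counting error alone, because PCR copies were not separable by molecular identifiers. No sequence is printed, since no genome was used here.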

Additional observations from a re-analysis of the deposited data

How the results depend on the processing

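The 2 Alu regions called between ΔLEO1 and wild-type cells in 0.1% serum fell to 0 with DESeq2, with all 8 ChIP libraries, with ChIP minus input in 1 fit and, because both are wider than 1 kb, among regions of at most 1 kb. Leaving out each library in turn gave 0 to 2 calls. No filter, library totals without TMM and TSS-window totals as library sizes each gave 2. Over all regions the main fit called 10, of which 2 were higher. No filter called 10 and library totals without TMM 9. TSS-window totals called 94 regions, of which only 1 was higher, so the background at that scaling was not the same. For the other ChIP comparisons and the input, every alternative and each left-out library gave 0 calls on Alu regions (range 0 to 0). ChIP over input gave 0 calls with library totals over peak regions, which by construction centre enrichment on 0, 1267 with DESeq2, and 1257 to 1268 with each library left out. The difference in Alu share of 0.555 percentage points reversed to -0.0884 with TSS-window reads as the total, and was 0.429 to 0.682 with each library left out. The median over Alu regions minus that over other regions stayed positive in 0.1% serum under every alternative, between 0.07 and 0.14, with the lowest value without ΔLEO1 replicate B (0.07). Alternatives that only rescale the libraries move all regions nearly alike, and the filter removed no ChIP region, so these could hardly change this difference. In 10% serum the difference reversed to -0.00703 with ChIP minus input. For the 39 named regions, 497 alternative values were classed as unchanged, 17 lost a call and 0 changed direction. Unchanged means the same direction and the same side of the threshold for regions named by a test. For the 10 regions named by level, it means that CPM per kb moved by less than the SD over the libraries.

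The replicate letter as a block gave 2 Alu calls for ΔLEO1 against wild type in 0.1% serum, 0 for the other ChIP comparisons and the input, and 1268 for ChIP over input, the counts found without it. Same-lettered libraries of the ChIP groups did not deviate together (r between -0.00284 and 0.02 across regions), so the letters do not show a pairing. Same-lettered ChIP and input libraries of a group deviated in opposite directions (r between -0.23 and -0.12), and crossing their letters, an alternative chosen after seeing the data, gave 1268 calls. With medians of 11 to 18 reads per Alu region, small changes of single regions were not detectable at this depth.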
